A study of Homo sapiens with 6 samples.

Results

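The comparison described here sets A172 cells given siRNAs against both ADAR1 and Staufen1 (the combined knockdown) against A172 cells given a control siRNA (siControl). A172 is an established human glioblastoma line. Each group has 2 libraries, replicates a and b, so 4 of the 6 libraries of the series are compared. The other 2 libraries, from cells given the ADAR1 siRNA alone (siADAR1), carry no weight in the contrast itself. They share the count filter, the scaling and the estimate of the spread behind its tests, and their levels are quoted beside it. The members are all rows of the deposited count table that passed a filter on low counts, 14711 of 20514 rows (71.7%). A row is a group of UCSC hg19 transcript IDs, taken here as 1 gene, and is called by its first ID. The treatment text in the labels is worded alike for all libraries, names a plasmid for HA-tagged STAU1 given a day after the siRNA, and leaves out the Staufen1 siRNA. Groups are therefore known only from their transfection labels. Taken as written, the treatment text puts the plasmid in every library, siControl included, and whether that is right cannot be checked here. No group had the Staufen1 siRNA alone, so the combined knockdown differs from siControl by both siRNAs at once.

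ADAR1 is an enzyme that edits double-stranded RNA by turning adenosines into inosines, and its loss is best known for exposing cells to sensing of their own double-stranded RNA. Staufen1 binds double-stranded stems in mRNAs, many of them formed by inverted Alu repeats in the untranslated end, and can start their decay together with the helicase UPF1. The series title ties the proteins together through this Staufen-mediated mRNA decay in stressed cells, where ADAR1 is placed as an inhibitor of it.

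Estimated reads per library ran from 20291057 to 28167312 in the libraries compared. The replicates of each group differed by more than counting noise, by a chi-square statistic per degree of freedom of 7.94 in siControl and 3.12 in the combined knockdown, so each library was counted as its own sample. The labels do not say whether a and b were separate cultures, so every p-value rests on the spread between libraries that may be technical repeats. The file does not pair rows with gene names, and the reference tables used here tie only a handful of rows to symbols. The rows of ADAR and STAU1, and those of the markers of glioblastoma cells, were not identified here for that reason. Any of them that passed the filter were tested with all other rows, and may be among the rows named below by ID. What a row named below encodes, and hence what it does, is not stated.

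Changes were widespread between the combined knockdown and siControl. At an adjusted p of 0.05 (edgeR quasi-likelihood test, Benjamini-Hochberg over all rows), 8022 rows (54.5%) were called, 4224 of them higher (28.7%) and 3798 lower (25.8%). The share called was lower by DESeq2 (47.2%), without replicate a or b of the combined knockdown (44.9% and 44.1%), and when a change beyond 1.5-fold was tested (edgeR glmTreat, 15.3%). Rises were 52.7% of the calls. With library totals as the only scaling 5741 rows were higher and 2349 lower, 71.0% rises, and with DESeq2 size factors 3963 and 4071, so which direction holds more rows depends on the scaling. Among called rows, the median rise was 1.68-fold and the median fall was 1.41-fold. Rows called higher were scarcer in siControl than rows called lower, and small changes are harder to call in scarce rows. These medians are therefore not on equal terms, and they depend on the scaling. Over all tested rows, the log2 fold change had its 5th percentile at -0.94, its median at 0.02 and its 95th percentile at 1.42. The libraries of the groups did not overlap in 11192 rows (76.1%, beside 54.5% called), and 3179 of these were not called.

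**Figure D1:**
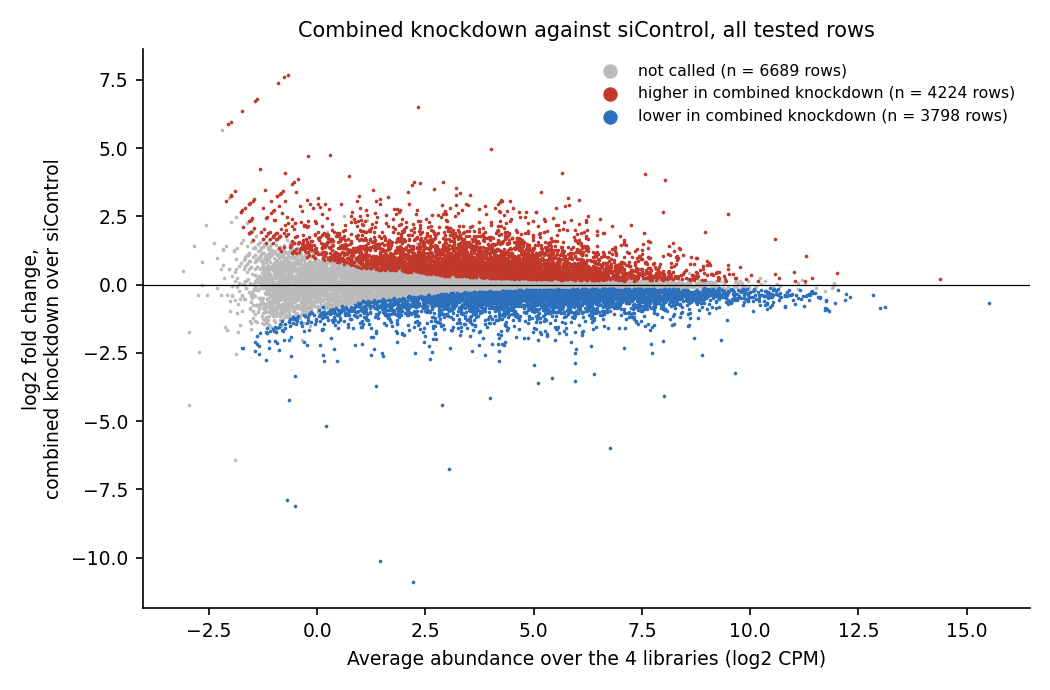
Each point is a row, placed by its average abundance over the 4 libraries compared (log2 CPM, x axis) and its log2 fold change in the combined knockdown over siControl (y axis), coloured by its call. The 4224 higher rows spread further from 0 than the 3798 lower rows through the middle of the abundance range, and the most abundant rows lie mostly under 0.

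Rises outnumbered falls at each size of change counted. At least 2-fold, 1426 rows were higher (9.69%) and 544 lower (3.7%), a ratio of 2.62. At least 4-fold, 254 were higher and 78 lower, and at least 8-fold, 62 and 18. With library totals as the only scaling, the 2-fold counts became 2001 and 332, the 4-fold counts 368 and 56, and the 8-fold counts 82 and 18. At least 16-fold, 16 rows were higher and 11 lower. Among rows averaging 3 or more on the log2 CPM scale, 667 were higher and 273 lower at least 2-fold, 83 and 34 at least 4-fold, and 15 and 9 at least 8-fold. Whether the excess grows with size thus depends on the scaling and on the scarce rows. The largest folds often rest on few reads: of the 62 rows higher at least 8-fold, 38 had at most 20 reads over both siControl libraries, and of the 18 lower rows, 9 had at most 20 over both combined knockdown libraries. Without replicate b of siControl, the rows higher at least 8-fold numbered 121, and without replicate a or b of the combined knockdown, those lower at least 8-fold numbered 35 or 30.

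Rows that rose at least 2-fold were scarce to begin with. CPM, reads per 1000000 after TMM scaling, had a median of 3.39 in siControl and 10.1 in the combined knockdown over these 1426 rows, and 357 of them (25%) were under 1 CPM in siControl. Over all tested rows 13.4% were under 1 CPM in siControl. Rows that fell at least 2-fold started from a median of 11.8 CPM and ended at 4.45 CPM. Of these 544 rows, 85 stood at 100 CPM or more in siControl and 30 in the combined knockdown. These levels use the same libraries as the calls and describe them only.

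The 8 largest rises by fold were taken from rows called higher, limited to those whose average log2 CPM was 3 or more and whose groups did not overlap, 2844 in all. The largest was uc002ndw.3, a row of 1 transcript. It stood at 0.611 and 1.30 CPM in the siControl libraries a and b, and at 33.8 and 27.9 CPM in the combined knockdown. Its siADAR1 libraries stood at 25.1 and 26.5 CPM. The log2 fold change of the combined knockdown over siControl was 4.95 (SE 0.20), and the low end rests on 11 and 29 reads. Without replicate b of siControl it was 5.63. Second was uc003yss.4, at 5.45 and 5.83 CPM in siControl and 95.7 and 95.2 CPM in the combined knockdown, a log2 fold change of 4.08 (SE 0.082). Its siADAR1 libraries, at 73.1 and 73.2 CPM, lay between the groups but near the upper one. In uc002mwr.3 the siControl libraries stood at 18.3 and 24.8 CPM and the combined knockdown at 351 and 368 CPM, a log2 fold change of 4.05 (SE 0.17). Its siADAR1 libraries were apart from each other, at 172.2 and 253 CPM, and below both combined knockdown libraries.

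A different placing of the siADAR1 libraries was seen in uc002zyr.1, a row of 1 transcript. It had 31.2 and 37.8 CPM in siControl, 41.5 and 67.6 CPM in siADAR1, and 481 and 501 CPM in the combined knockdown. The log2 fold change over siControl was 3.83 (SE 0.18), and both combined knockdown libraries lay far above all others. At the other end, uc004bay.2 had 1.28 and 1.57 CPM in siControl, 19.0 and 18.2 CPM in siADAR1, and 18.4 and 15 CPM in the combined knockdown, a log2 fold change of 3.53 (SE 0.17). Here the siADAR1 and combined knockdown libraries overlapped. The row uc001nfs.4 rose from 5.39 and 6.95 CPM to 64.8 and 66.2 CPM, by 3.39 (SE 0.15) on the log2 scale, with 43.2 and 57.6 CPM in siADAR1. In uc002wyc.3, a row of 13 transcripts, the change was from 1.5 and 1.88 CPM to 17.5 and 17.7 CPM, a log2 fold change of 3.36 (SE 0.15), with 11.1 and 10.0 CPM in siADAR1. The eighth, uc003ywn.2, went from 1.61 and 1.70 CPM to 16.1 and 16.7 CPM, by 3.30 (SE 0.15), with 9.52 and 9.45 CPM in siADAR1. In these last 3 rows the siADAR1 libraries lay above both siControl libraries and below both combined knockdown libraries. Adjusted p-values of the 8 rises ran from 2.81e-11 to 1.62e-08 (edgeR quasi-likelihood, Benjamini-Hochberg). The next row in this order had a log2 fold change of 3.27. A larger change with a lower average abundance was that of uc010yrj.2, singled out after its values were seen. It went from 0.111 and 0.0897 CPM to 9.08 and 10.0 CPM, a log2 fold change of 6.52 (SE 0.34) that rests on 2 reads in each siControl library, with 7.54 and 9.85 CPM in siADAR1.

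The 8 largest falls were taken the same way from 3179 rows. The largest, uc001jep.4, stood at 14.7 and 18.3 CPM in siControl and at 0.0800 and 0.211 CPM in the combined knockdown. Its low end is 2 and 6 reads, and its log2 fold change was -6.75 (SE 0.42), or -7.62 without replicate b of the combined knockdown. The siADAR1 libraries of this row had 14.6 and 8.53 CPM, close to or under siControl and far above the combined knockdown. More reads stood behind the fall of uc002xua.3, which groups 7 transcripts. It stood at 213 and 212 CPM in siControl, 256 and 255 CPM in siADAR1, and 3.16 and 3.48 CPM in the combined knockdown, where it still had 79 and 99 reads. Its log2 fold change was -6.00 (SE 0.080), a 63.9-fold fall, and its adjusted p of 1.00e-12 was the lowest of the 16 rows (edgeR quasi-likelihood, Benjamini-Hochberg).

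The falls of uc002ojs.2 and uc003ezf.2 were also much deeper in the combined knockdown than in the siADAR1 libraries. The first had 79.3 and 77.7 CPM in siControl, 60.2 and 58.2 CPM in siADAR1, and 7.32 and 7.20 CPM in the combined knockdown, a log2 fold change over siControl of -3.43 (SE 0.079). The second had 168 and 139 CPM in siControl, 84.9 and 85.9 CPM in siADAR1, and 15.8 and 15.9 CPM in the combined knockdown, a log2 fold change of -3.28 (SE 0.095). In both, the siADAR1 libraries lay between the groups.

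The remaining 4 falls stood at similar levels in the siADAR1 and combined knockdown libraries. In uc001ffh.3, siControl had 512 and 465 CPM, siADAR1 had 25.1 in each, and the combined knockdown had 29.7 and 28.7 CPM, a log2 fold change over siControl of -4.07 (SE 0.071). In uc003dna.4 the siControl libraries had 60.5 and 67.2 CPM, the siADAR1 libraries 4.0 and 3.86 CPM, and the combined knockdown 4.96 and 5.55 CPM, a log2 fold change of -3.60 (SE 0.099). Both rows were slightly higher in the combined knockdown than in siADAR1, in each library. The row uc001giv.3 had 118 and 112 CPM in siControl, 11.9 and 11.2 CPM in siADAR1, and 10.7 and 9.30 CPM in the combined knockdown, a log2 fold change of -3.52 (SE 0.086). The most abundant of the 8, uc001rux.2, had 1486 and 1425 CPM in siControl, 147 and 148 CPM in siADAR1, and 157 and 152 CPM in the combined knockdown, a log2 fold change of -3.23 (SE 0.057). Adjusted p-values of the 8 falls reached at most 1.02e-07 (edgeR quasi-likelihood, Benjamini-Hochberg), and the next row in this order had a log2 fold change of -2.95. These 16 rows were picked for their size, and the siADAR1 comparison shares the siControl libraries with this one, so the levels are set side by side as a description.

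**Figure D2:**
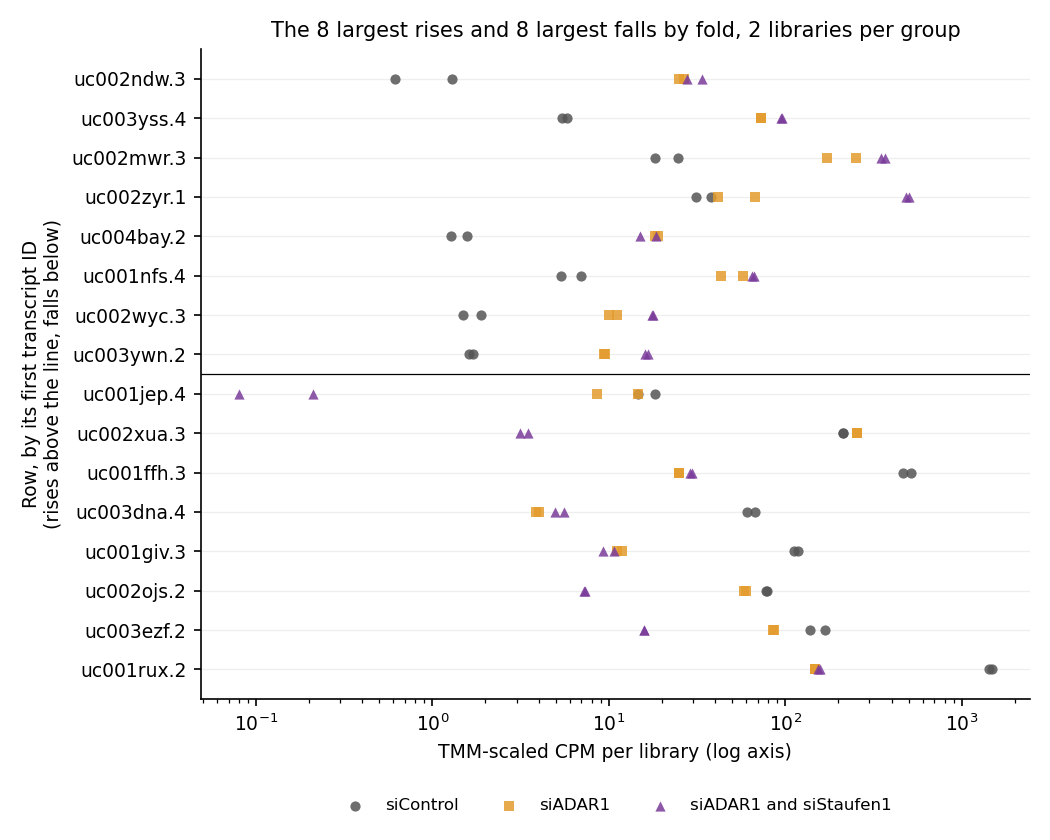
TMM-scaled CPM of each library on a log axis for the 8 largest rises (above the line) and the 8 largest falls (below it), 2 points per group. In uc002xua.3, uc001jep.4 and uc002ojs.2 the siADAR1 squares lie near the siControl circles, and in uc001ffh.3 and uc001rux.2 they lie near the combined knockdown triangles.

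The change was also measured by where the reads lay, as a percent of each library's total with no TMM factor. Between a siControl and a combined knockdown library, 12.2% to 13.9% of the reads lay in other rows (the sum of the gains over all rows, 4 pairs). Between replicates this share was 3.74% in siControl and 2.18% in the combined knockdown. All 4 between-group shares were above both replicate shares, and with 2 libraries a side the smallest p that an exact permutation test allows is 0.333. Between the group means, the reads lost from rows that lost any came to 12.8%. Of this loss 25% fell in the 10 rows that lost most, all 10 called lower, and 99.4% in rows called lower. The gain was more dispersed, with 11.9% in the 10 rows that gained most, 9 of them called higher. Of the gain, 20.5% lay in rows that were not called after TMM scaling. Library totals raised the median log2 fold change of all rows by 0.18 over TMM scaling, which moves uncalled rows towards gain. The shares of loss and gain in called rows are therefore not on equal terms.

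A single row, uc003lug.4, carried 11.6% of the loss. It was the most abundant row of siControl, with 5.43% and 4.92% of the reads in the siControl libraries and 3.61% and 3.77% in the combined knockdown. In TMM-scaled CPM it fell from 57911 ± 4677 to 36307 ± 1320 (SD, n = 2 each), a log2 fold change of -0.67 (SE 0.056) with 1.13e-06 as its adjusted p (edgeR quasi-likelihood, Benjamini-Hochberg). It was no longer called when the test was for a change larger than 1.5-fold (edgeR glmTreat, adjusted p = 0.11). The other 4 of the 5 largest falls in CPM were of similar fold. The row uc001qop.2 fell from 11250 ± 398 to 6374 ± 192 CPM and uc003phi.3 from 10577 ± 552 to 5804 ± 129 CPM (SD, n = 2 each). Their log2 fold changes were -0.82 (SE 0.049) and -0.87 (SE 0.051). The row uc001fun.2 fell from 4776 ± 184 to 2464 ± 9.3 CPM, by a log2 change of -0.96 (SE 0.050), and uc001fby.3 from 4580 ± 217 to 2455 ± 95.7 CPM, by a log2 change of -0.90 (SE 0.054; SD, n = 2 each). All 5 were 1.60- to 1.94-fold lower. Their groups did not overlap, which held for all but 9 of the 8022 called rows. In siADAR1 these 5 rows were lower still, with uc003lug.4 at 32602 and 32718 CPM and uc001qop.2 at 5250 and 5181 CPM.

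The 5 largest rises in CPM were less alike. The row uc003soq.4, second in abundance in siControl, stood at 20215 and 19272 CPM in siControl, 16285 and 16625 CPM in siADAR1, and 22682 and 22585 CPM in the combined knockdown. It was thus higher than siControl in the combined knockdown, by a log2 change of 0.20 (SE 0.045), while the siADAR1 libraries were the lowest of the 6. Its adjusted p was 0.00273 (edgeR quasi-likelihood, Benjamini-Hochberg), and it too was not called against 1.5-fold (glmTreat, adjusted p = 1). It was the only one of the 10 most abundant siControl rows to be called higher, and the other 9 were called lower. The row uc003uew.3 had 1432 and 1829 CPM in siControl and 3367 and 3378 CPM in the combined knockdown, a log2 fold change of 1.05 (SE 0.12). Its siADAR1 libraries, at 1503 and 1969 CPM, overlapped the siControl libraries.

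In uc003lon.1 and uc001hpw.3 the siADAR1 libraries lay above both siControl libraries and below both combined knockdown libraries. The first had 740 and 719 CPM in siControl, 1308 and 1297 CPM in siADAR1, and 2274 and 2325 CPM in the combined knockdown, a log2 fold change over siControl of 1.66 (SE 0.050). The second had 194 and 221 CPM, then 664 and 775 CPM, then 1256 and 1210 CPM, a log2 fold change over siControl of 2.57 (SE 0.084). The fifth, uc001ugr.3, had 3689 and 3392 CPM in siControl, 5125 and 4999 CPM in siADAR1, and 4790 and 4659 CPM in the combined knockdown. Its log2 fold change was 0.42 (SE 0.053), and it was likewise not called against 1.5-fold (glmTreat, adjusted p = 1).

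**Figure D3:**
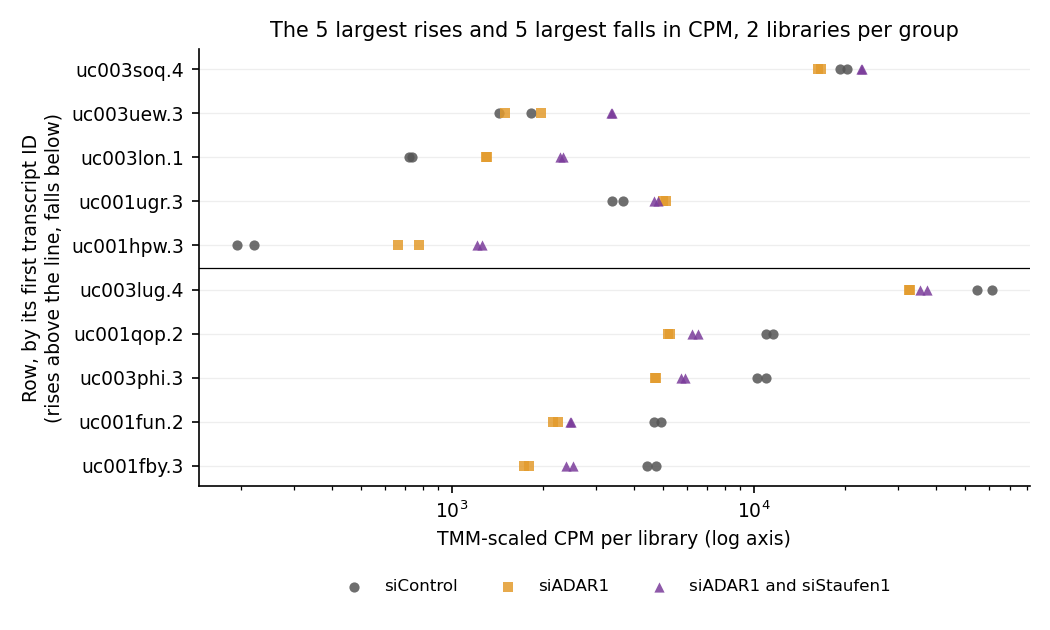
TMM-scaled CPM of each library on a log axis for the 5 rows that gained most CPM (above the line) and the 5 that lost most (below it), 2 points per group. The 5 falls have siControl highest, siADAR1 lowest and the combined knockdown between them, nearer to siADAR1. In uc003soq.4 the siADAR1 libraries lie under both other groups, and the combined knockdown lies highest.

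Direction went with abundance. Tested rows were split into deciles by average log2 CPM over the 4 libraries compared. In the most abundant decile, 58.8% of the rows were lower and 17.9% higher, and the median log2 fold change was -0.23 in each combined knockdown library against the siControl mean. In the fifth decile, 40.0% were higher and 19.3% lower, with a median of 0.14. The median was highest in the fourth decile (0.19) and turned negative from the eighth decile up. Part of this turn depends on the scaling: under library totals, which raised the median of all rows by 0.18, the medians of the eighth and ninth deciles were 0.13 and 0.07, and only the top decile stayed under 0, at -0.05. There, 38.7% were still lower and 28.7% higher. A change of scaling shifts all rows by nearly the same amount. The decline of the median from the fourth decile to the top one therefore could not differ between the scalings, and its presence under both is no separate support.

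The precision of the fold change improved with abundance as well. The median SE was 0.55 on the log2 scale in the least abundant decile, 0.13 in the fifth and 0.059 in the top decile. Shares of called rows therefore cannot be compared between deciles as if each could show the same change: in the least abundant decile all 145 higher and all 67 lower calls were changes of at least 2-fold. Rises of at least 2-fold made up 14.5% of the third decile and 2.65% of the top decile, and falls of that size 4.62% and 3.40%. With TMM scaling the top decile had more falls than rises of at least 2-fold, 50 against 39, and in the other 9 deciles rises outnumbered falls. Under library totals this turned in the top decile too, with 54 rises and 34 falls of that size.

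**Figure D4:**
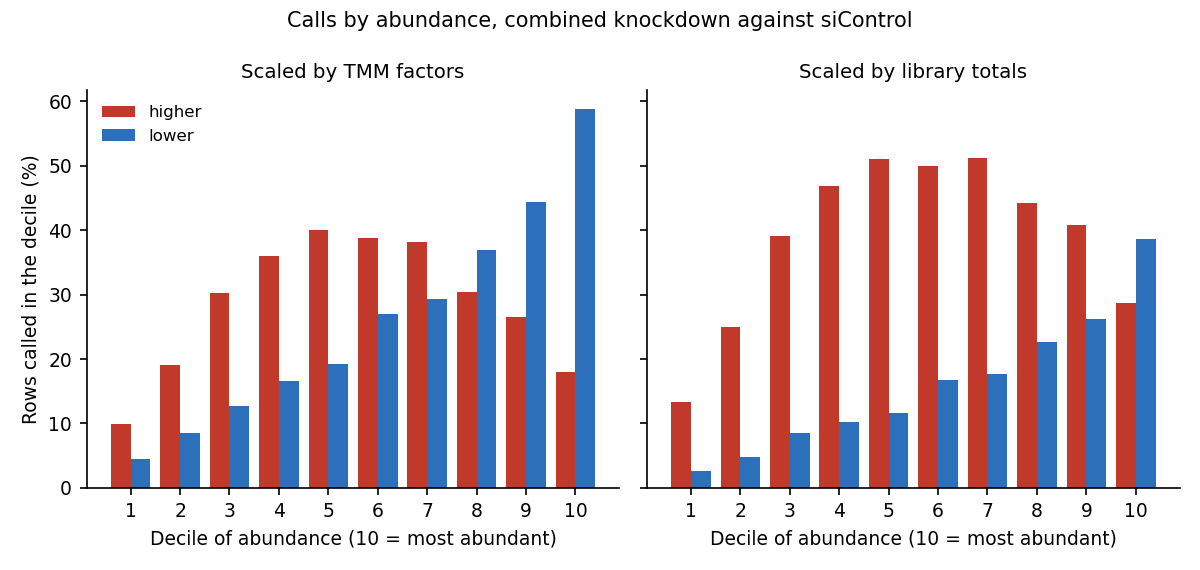
Bars give the percent of rows called higher (red) and lower (blue) in each decile of abundance, with TMM scaling on the left and library totals on the right. On the left, lower rows outnumber higher rows from the eighth decile up, reaching 58.8% against 17.9%, and on the right only in the top decile, 38.7% against 28.7%.

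The number of transcript IDs in a row is the one other property that the file gives. Of 3472 rows with 1 transcript, 27.2% were higher and 21.5% lower. Of 1608 rows with 7 or more, 30.5% were higher and 26.4% lower. For changes of at least 2-fold the order turned around, with 12.5% higher and 4.84% lower among rows of 1 transcript, and 7.84% higher and 2.30% lower among rows with 7 or more. Rows of 1 transcript were also scarcer, with a median average log2 CPM of 2.51 against 4.34, and had a larger median SE, 0.17 against 0.096. The part of abundance in this difference was not tested.

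In 6 rows there was no read in either library of one group and at least 10 in each library of the other. In siControl, 3 rows had no read: uc004ejk.3 with 20 and 34 reads in the combined knockdown, uc002qsl.4 with 17 and 27, and uc002tco.1 with 15 and 14. Against a floor of 3 counts per library, after TMM scaling, they were at least 6.62-, 5.40- and 3.62-fold higher. In the combined knockdown, 3 rows had no read: uc021ump.1 with 120 and 266 reads in siControl, uc021sse.1 with 98 and 124, and uc021qkh.1 with 28 and 26. Against the same floor they were at least 82.6-, 48.9- and 12.1-fold lower. The bounds of all 6 rows use the mean of the group with reads and leave out the spread between libraries. By DESeq2, the SEs of the log2 fold changes of the 3 lower rows were 2.52, 3.95 and 2.65. The siADAR1 replicates of these lower rows were far apart in relative terms, with 168 and 6, 0 and 69, and 0 and 5 reads. All 6 rows were called, with adjusted p-values from 0.000197 to 0.00169 (edgeR quasi-likelihood, Benjamini-Hochberg), while DESeq2 left uc004ejk.3 uncalled (adjusted p = 0.062) and gave uc002tco.1 no adjusted p. Each of the lower rows held 1 transcript, and RSEM divides reads among similar transcripts by a model, so such zeros are estimates; whether similar transcripts took these reads was not tested.

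Calls were also made in 9 rows whose libraries overlapped between the groups. The one with the largest fold change among those above an average log2 CPM of 3 was uc002ggr.2, singled out after its values were seen. It had 1078 and 20 reads in siControl, 54 and 70 in siADAR1, and 55 and 33 in the combined knockdown. Its log2 fold change was -4.16 (95% interval -6.69 to -1.64), with an adjusted p of 0.00905 (edgeR quasi-likelihood, Benjamini-Hochberg). Without replicate a of siControl the direction turned, to a log2 fold change of 0.87 that was not called, so this fall rests on 1 library. It was also not called by limma-voom (adjusted p = 0.38), nor without either combined knockdown library (adjusted p = 0.052 and 0.086).

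A row that was not called is not thereby shown to be alike in both groups. Of the 6689 rows not called, 686 had an unadjusted p under 0.05. The 95% interval of the fold change lay within 1.5-fold either way in 3295 of them (49.3%) and within 2-fold in 4637 (69.3%). In the other 2052 a change of 2-fold was still inside the interval. The first of these sets had a median average log2 CPM of 4.54 and the last one of -0.39, so the data leave large changes undecided mostly in scarce rows.

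The RefSeq gene table of GRCh38.p14 lists UCSC IDs among the synonyms of 7 genes. Letting case and version number differ, 6 of them matched a row, and only for ACTA2-AS1 was the version the same, so the other ties are uncertain. All are long non-coding RNA genes, 4 of the 6 named as antisense partners of another gene. Reads of a gene and its antisense partner cannot be told apart where the strand setting of the counting is not known. None of the 3 that passed the filter was called. LINC01426 had 18 and 10 reads in siControl and 21 and 23 in the combined knockdown, a log2 fold change of 0.22 (95% interval -0.73 to 1.18). SLC9A3-AS1 had 42 and 61 reads against 61 and 73, a log2 fold change of -0.03 (95% interval -0.61 to 0.56). The row matched to IL12B-AS1 carries that ID only behind its first one, uc003xsk.4, and since this tie may be wrong no value is given under the symbol. ACTA2-AS1 had 0 and 4 reads against 4 and 3. The row matched to MIR7-3HG also carries the ID of that gene only behind its first one, uc002mbd.3, so its reads may not be those of the gene. This row had 0 and 2 reads against 0 and 0. ZNF350-AS1 had none in any library, and a count of 0 allows up to 3 counts per library.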

How the data were processed

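RNA-seq counts were analysed. The authors deposited estimated counts (unit: expected counts) per row of UCSC hg19 transcripts, all whole numbers. RSEM 1.2.3, edgeR and hg19 are named per the submitters' processing notes, without roles, and libraries were made with a Lexogen SENSE mRNA kit per the labels' protocols. Which aligner and strand setting were used, and how counts were rounded, is not given in the sources here. Rounding left the counts unchanged.

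Rows were kept by edgeR's filterByExpr (10 reads, total 15), scaled by TMM, and fitted with 1 mean per group over all 6 libraries (3 residual degrees of freedom), so that siADAR1 entered the filter, the scaling and the estimate of the spread, but not the contrast. Two-sided quasi-likelihood tests (edgeR) were made for the contrast, with Benjamini-Hochberg adjustment over 14711 rows, at 0.05. SEs come from the F statistic and intervals (95%) from its degrees of freedom. The code was tested on simulated data. Depth sets the counting error but not the other errors. Reads carry no molecular identifiers, so read counts are not counts of molecules.

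Rows named are the 8 largest rises and falls by fold (average log2 CPM of at least 3, prior count 2), the 5 largest each way in CPM, the 3 most abundant in siControl, and rows tied to a symbol. Members and lists were chosen with earlier results of these data known. Gene lists on interferon, apoptosis, repair, decay, stress, cycle and cell types were not run, since no annotation linking rows to symbols was used here. Alternatives were DESeq2 size factors, library totals, no filter, average log2 CPM of at least 3, DESeq2 1.42.0, limma-voom (limma 3.58.1), the replicate letter as a block, the 4 libraries alone, each library left out, and edgeR glmTreat at 1.5-fold. Counts at 4-fold, 8-fold and 16-fold, the rows with no read in a group, uc002ggr.2 and uc010yrj.2 were added after seeing the data. R 4.3.3, edgeR 4.0.16, Python 3.11.15 and matplotlib 3.10.9 were used.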

Additional observations from a re-analysis of the deposited data

How the results depend on the processing

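Of 58 alternative values for the counts of rows called higher or lower, at any size or at least 2-fold, 52 differed from the reported count by no more than 1.5 times. Scaled by library totals, 2349 rows were lower, 332 of them at least 2-fold. With glmTreat at 1.5-fold, 1544 rows were higher and 711 lower, fewer by construction. Among rows averaging 3 or more on the log2 CPM scale, 667 were higher and 273 lower at least 2-fold, from 8875 rows tested. With each library left out in turn, a lone library being assumed to vary like the other groups, 3379 to 4034 rows were higher and 3100 to 3874 lower, and 1314 to 1537 and 517 to 591 at least 2-fold. With the replicate block, 4227 were higher and 3772 lower. The deviations of same-letter libraries of siControl and the combined knockdown correlated by 0.021 across rows, and the letters were not treated as pairs. The siADAR1 libraries, which enter the estimate of the spread, were not part of this correlation. The 26 rows named for their change by fold or in CPM kept their sign in all 390 alternatives and their call in 387, the exceptions being uc003lug.4, uc003soq.4 and uc001ugr.3 under glmTreat. They were picked for size, so this says little about other rows. Direction turned without a call in some alternatives for SLC9A3-AS1, LINC01426 and uc002ggr.2. SLC9A3-AS1 turned to 0.16 under library totals, and ran from -0.14 to 0.087 with a library left out. LINC01426 turned to -0.29 without siControl replicate b, and kept its direction, at 0.85, without siControl replicate a. The row uc002ggr.2 turned to 0.87 without siControl replicate a, and kept its direction, at -5.19, without siControl replicate b. The causes were not tested. Depth limits scarce rows most, where the SE is largest.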
